A study of Rattus norvegicus with 8 samples.

Results

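The report concerns 8 enzymes of cholesterol synthesis, Hmgcs1, Idi1, Fdps, Fdft1, Sqle, Lss, Cyp51 and Dhcr7, in the prostate of tumour-prone rats given the blood pressure drug telmisartan. Members were chosen by gene name on the array, after endings such as "predicted" were removed. They are served by 11 of 41012 gene probes, and all 8 were among the 23207 genes tested.

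TRAP rats, the transgenic rat for adenocarcinoma of prostate, carry a viral T antigen gene that a probasin promoter drives in prostate epithelium, so that tumours develop in young males. All animals compared were heterozygous TRAP males on the Sprague-Dawley (SD) strain, 15 weeks old when the prostate was taken. The 4 control rats (numbered 102, 103, 104 and 106) had tap water, and the 4 telmisartan rats (302, 303, 305 and 306) drank 10 mg/kg/day for 12 weeks from 3 weeks of age. Each rat's RNA was labelled with Cy5 and hybridised to one 2-colour array against Cy3-labelled RNA of normal ventral prostate from 6-week-old F344 rats. The reference therefore differs from every TRAP rat in strain, age and transgene together, which cannot be told apart, and no array had the dyes swapped. Values are log2 ratios of TRAP prostate over that reference. In a whole tissue, fewer cells of a type and less RNA per cell cannot be told apart.

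The file headers gave 2 scan dates, each shared by 2 control and 2 telmisartan rats. These sets are called slide 1 and slide 2 here, and no slide number was read. Between 64.7% and 76.8% of gene spots were well above background in Cy5 in control rats, and between 59.2% and 68.1% in telmisartan rats. Against the reference, the per-rat mean of the proliferation markers was 3.08 to 3.65 in control and 3.05 to 3.45 in telmisartan rats. The mean of the ventral prostate secretion genes was far below the reference, at -5.94 to -5.30 and -5.80 to -5.37. Luminal epithelial markers lay at -0.53 to -0.17 and -0.37 to -0.10. No gene of the 23207 tested (0%) passed an adjusted p of 0.05 in limma between telmisartan and control rats, while 4.82% had an unadjusted p under 0.05.

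Cholesterol is built from acetyl-CoA through mevalonate, isoprenoid diphosphates and squalene to lanosterol and then to cholesterol. When sterols run low in the endoplasmic reticulum, SCAP escorts SREBP transcription factors to the Golgi, where they are cut and released to switch on the genes of the pathway. Prostate epithelium makes cholesterol for its membranes and secretions, and dividing cells need it for new membrane. Hmgcs1 makes HMG-CoA at the head of the pathway. Idi1 interconverts the isoprene units, Fdps joins them to farnesyl diphosphate, and Fdft1, squalene synthase, joins farnesyl units to squalene. Sqle oxidises squalene, Lss closes the rings to lanosterol, Cyp51 removes a methyl group from lanosterol, and Dhcr7 carries out a late reduction to cholesterol.

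The promoters of 4 members are shown. Idi1, Lss and Cyp51 had pairwise r of 0.67 to 0.72 over the 8 rats. They were not a set apart, since Sqle with Idi1 had 0.94. Without rats 103 and 302, Idi1 with Cyp51 had 0.17. Hmgcs1, at the head of the pathway, was lower in telmisartan rats by the mean. Each is the 250 bases before the gene's start in RefSeq, build GRCr8, 5′ to 3′ on the gene's strand; capitals mark matches of the motifs CCAAT and GGGCGG on either strand. The intervals are chr17:66547525-66547774 (minus strand) for Idi1, chr20:12118231-12118480 (minus) for Lss, chr4:30991443-30991692 (plus) for Cyp51 and chr2:53382054-53382303 (plus) for Hmgcs1.
Idi1: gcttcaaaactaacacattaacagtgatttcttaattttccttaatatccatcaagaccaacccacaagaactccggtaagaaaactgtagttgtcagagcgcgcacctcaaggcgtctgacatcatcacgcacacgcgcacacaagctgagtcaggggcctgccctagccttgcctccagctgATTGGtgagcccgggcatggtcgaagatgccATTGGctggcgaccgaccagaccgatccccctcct
Lss: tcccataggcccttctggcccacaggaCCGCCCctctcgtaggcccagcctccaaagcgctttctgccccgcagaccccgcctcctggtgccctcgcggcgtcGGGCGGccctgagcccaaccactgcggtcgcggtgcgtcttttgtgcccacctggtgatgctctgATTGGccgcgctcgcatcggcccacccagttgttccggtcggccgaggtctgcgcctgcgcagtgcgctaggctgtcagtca
Cyp51: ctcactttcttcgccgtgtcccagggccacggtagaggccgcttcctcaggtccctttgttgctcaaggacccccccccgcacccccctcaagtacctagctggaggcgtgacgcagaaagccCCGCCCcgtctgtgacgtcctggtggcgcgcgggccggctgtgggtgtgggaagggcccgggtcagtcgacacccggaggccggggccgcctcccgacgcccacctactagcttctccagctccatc
Hmgcs1: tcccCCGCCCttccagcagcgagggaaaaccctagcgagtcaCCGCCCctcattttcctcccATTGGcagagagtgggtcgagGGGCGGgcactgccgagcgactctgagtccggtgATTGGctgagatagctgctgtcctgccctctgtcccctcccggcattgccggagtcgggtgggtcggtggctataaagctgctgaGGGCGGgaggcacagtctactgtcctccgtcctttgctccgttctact
The table of promoters held 6 of the 8 members, all but Sqle and Fdft1. CCAAT, the box bound by NF-Y, was found in 4 of the 6 (Idi1, Fdps, Hmgcs1 and Lss), against 34.0% of all 33469 promoters of that length. GGGCGG, the core of Sp1 sites, was found in 5 of the 6, all but Idi1, against 30.5%. The sterol element searched as TCACNCCAC, and the shorter CACNCCAC that it contains, were in none of the 6, against 0.974% and 4.89% of all promoters. These are matches of letters in a window, not sites.

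Hmgcs1, the head of the pathway, had log2 ratios of -1.37, -1.29, -1.27 and -1.62 in control rats 102, 103, 104 and 106. In telmisartan rats 302, 303, 305 and 306 they were -1.19, -1.89, -1.72 and -1.93. Telmisartan rats 303, 305 and 306 were below all controls, while rat 302 was above all of them, so the groups overlapped. The means were -1.39 ± 0.16 and -1.68 ± 0.34 (SD, n = 4 each), a difference of -0.29 (SE 0.17, 95% interval -0.67 to 0.08) with an adjusted p of 0.981 in limma. Hmgcs1 was read by the probe below, chosen because the brighter probe had an outlier spot on telmisartan rat 306.
A_44_P487240: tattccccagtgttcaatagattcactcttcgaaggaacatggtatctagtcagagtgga
The brighter probe gave ratios lower by 0.95 ± 0.13 (SD over 7 arrays), and a difference of -0.35 between the groups. Over those 7 arrays the 2 probes had r = 0.983, as a description.

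The isoprene enzymes Idi1 and Fdps had differences of means close to 0 by the probes used. Idi1 had ratios of -1.10, -0.10, -0.81 and -1.01 in control rats and of -0.43, -0.70, -1.20 and -0.92 in telmisartan rats. The highest was control rat 103 and the lowest telmisartan rat 305. The difference of means was -0.06 (SE 0.23, 95% interval -0.58 to 0.46, adjusted p = 0.997 in limma). Fdps had ratios of -1.83, -1.43, -1.47 and -1.55 in control rats and of -1.24, -1.89, -1.81 and -1.48 in telmisartan rats. Telmisartan rats held both the highest and the lowest value. The difference of means was -0.04 (SE 0.16, 95% interval -0.39 to 0.32, adjusted p = 0.997 in limma). The 2 Fdps probes, from different stretches of the transcript, are shown because they bear on how well a ratio is measured.
A_44_P432965: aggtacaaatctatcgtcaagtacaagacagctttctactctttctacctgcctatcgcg
A_44_P143567: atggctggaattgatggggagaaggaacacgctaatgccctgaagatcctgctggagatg
The second gave ratios lower by 0.43 ± 0.06 (SD over 7 arrays, r = 0.972). For Fdps and Hmgcs1, the 2 probes thus differed in the size of the ratio by more than their spread across arrays, while following the same rats. The 2 Idi1 probes were closer, with the other probe lower by 0.11 ± 0.09 (SD over 8 arrays, r = 0.969). That other probe gave a difference of means of 0.08, against -0.06 for the probe used. The second Fdps probe, which had no value for telmisartan rat 302, gave -0.20, against -0.04 for the probe used.

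Fdft1, which commits farnesyl units to sterols, had ratios of -1.30, -1.003, -1.03 and -1.01 in control rats and of -0.65, -1.20, -0.88 and -0.83 in telmisartan rats. Telmisartan rats 302, 305 and 306 were above all controls and rat 303 was below 3 of them. The difference was 0.20 (SE 0.13, 95% interval -0.09 to 0.49, adjusted p = 0.981 in limma). Sqle, the squalene oxidase, had ratios of -0.96, -0.20, -0.74 and -0.80 in control rats and of -0.45, -0.76, -0.89 and -0.64 in telmisartan rats. The controls held both the highest and the lowest rat, and the means were -0.67 ± 0.33 and -0.69 ± 0.19. The difference was -0.01 (SE 0.17, 95% interval -0.39 to 0.36, adjusted p = 0.998 in limma).

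Lss, the ring-closing enzyme, had the largest SD over the 8 rats, at 0.43, while the range of Idi1 was wider, at 1.10 against 0.99. Its ratios were -1.60, -0.64, -1.37 and -1.41 in control rats and -0.67, -0.71, -1.39 and -0.60 in telmisartan rats. The rats fell into 2 sets of 4 with a gap of 0.66 between them, at -1.60 to -1.37 and at -0.71 to -0.60. The lower set held 3 control rats and telmisartan rat 305, and the upper set held 3 telmisartan rats and control rat 103. The difference of means, 0.41 (SE 0.23, 95% interval -0.11 to 0.93), was the widest of the 8, with an adjusted p of 0.981 in limma and an exact two-sided permutation p of 0.257. It was 0.43 on slide 1 and 0.39 on slide 2.

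The last enzymes shown, Cyp51 and Dhcr7, also overlapped between the groups. Cyp51, the lanosterol demethylase, had ratios of -1.02, -0.73, -1.18 and -1.06 in control rats and of -0.40, -1.07, -1.22 and -0.85 in telmisartan rats. Its difference was 0.11 (SE 0.18, 95% interval -0.28 to 0.51, adjusted p = 0.99 in limma). Dhcr7 had ratios of -0.65, -0.09, -0.06 and -0.01 in control rats and of 0.00, -0.25, -0.11 and 0.21 in telmisartan rats. Control rat 102 was the lowest by a wide margin. The difference was 0.16 (SE 0.16, 95% interval -0.19 to 0.52, adjusted p = 0.981 in limma).

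**Figure D1:**
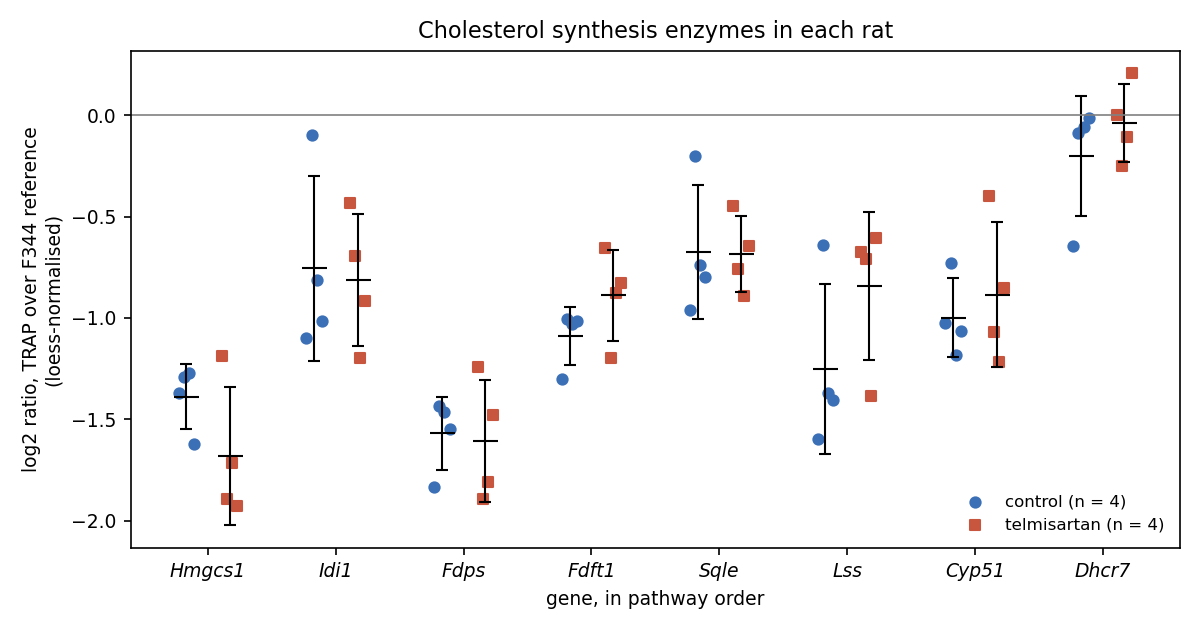
Log2 ratio of TRAP prostate over the F344 reference for each of the 8 enzymes, 1 point a rat, with group means and SD (n = 4 control and 4 telmisartan rats). Points of the 2 groups overlap for every enzyme, and Lss shows 2 sets of rats separated by 0.66; the place of the zero line changes with the scaling, and under median centring the means of Sqle, Idi1, Fdft1, Lss, Cyp51 and Dhcr7 lie above it.

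Across the 8 enzymes, 4 were higher and 4 lower in telmisartan rats by the mean, against 50.6% of all genes lower, and under median centring Sqle, Idi1 and Fdps turned higher. Of the 8, 0 passed the adjusted threshold, as 0% of all genes did. The median difference was 0.05, against -0.002 over all genes tested. The groups overlapped for all 8, while they did not overlap for 2.73% of all genes. The exact permutation p-values, two-sided, ran from 0.2 for Hmgcs1 to 0.971 for Sqle, and 4 against 4 rats can give no p below 0.0286. A p that misses the threshold does not show that the groups were alike: the 95% intervals reached a fall of 0.67 for Hmgcs1 and a rise of 0.93 for Lss.

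**Figure D2:**
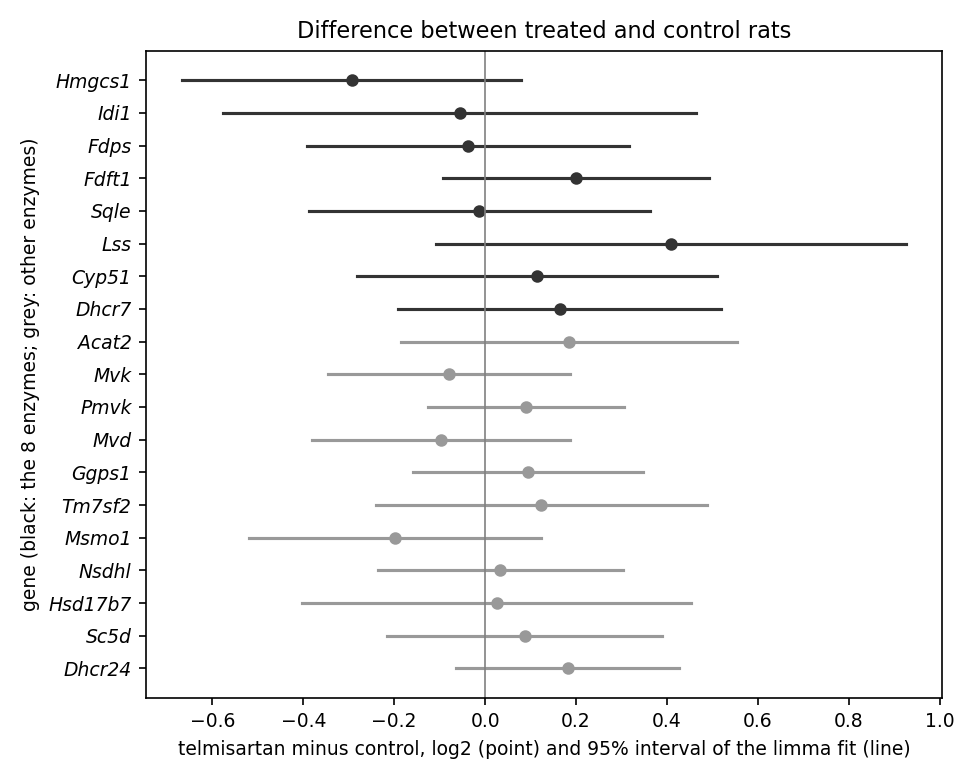
Difference in log2 ratio, telmisartan minus control rats, for each enzyme with its 95% interval from limma (n = 4 each). Every interval crosses 0, and the differences run from -0.29 for Hmgcs1 to 0.41 for Lss.

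The level over the reference was a second readout, and its direction depended on how the 2 dyes were put on one scale. After loess, which sets each ratio against spots of like brightness, 7 of the 8 enzymes were below the reference in all 8 rats, all but Dhcr7, while under median centring only Hmgcs1 was. Among all genes tested, 25.7% were below it in all 8 rats after loess and 14.9% under median centring. Fdps and Hmgcs1 were the lowest after loess, at -1.59 and -1.54, or 3.01-fold and 2.90-fold below the reference. They were the 2 enzymes more than 2-fold below it in every rat, a level that 3.29% of all genes reached, and under median centring they lay at -0.08 and -0.32. Lss, Fdft1 and Cyp51 followed at -1.05, -0.99 and -0.94, then Idi1 at -0.78 and Sqle at -0.68, but median centring put all of these above 0, at 0.21, 0.29, 0.43, 0.62 and 0.65. Dhcr7 was close to the reference after loess, at -0.12, and at 1.19 under median centring. In that order, Fdps and Hmgcs1 differed by less than the SD between rats, as did Lss, Fdft1 and Cyp51 and also Idi1 and Sqle. By its other probe, read on 7 arrays, Hmgcs1 was at -2.27 in control and -2.63 in telmisartan rats after loess. The other Fdps probe, also read on 7 arrays, was at -1.98 and -2.18. The size and order of these 2 levels thus depend on the probe.

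The members' median was -0.965 after loess, -1.03 by the scanner software's own ratio and 0.36 under median centring. The median of all genes tested was 0.06, 0.11 and 0.69 on the same 3 scales. The filter that chose these genes asked for signal in Cy5, the TRAP channel, and not in Cy3. Relative to that median the enzymes lay 1.03, 1.14 and 0.33 lower. Their place below the median gene tested thus held on all 3 scales, and its size did not. Median centring sets the median gene spot, before the filter, level with the reference. On that scale the members' median of 0.36 lay above the median spot, so their place there depends on the filter. By the scanner's ratio 28% of all genes were below the reference in all 8 rats. Under median centring Dhcr7 was the 1 enzyme above the median gene tested. The share of all genes tested below the members' median was 6.08% after loess, 9.45% by the scanner's ratio and 38.5% under median centring.

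**Figure D3:**
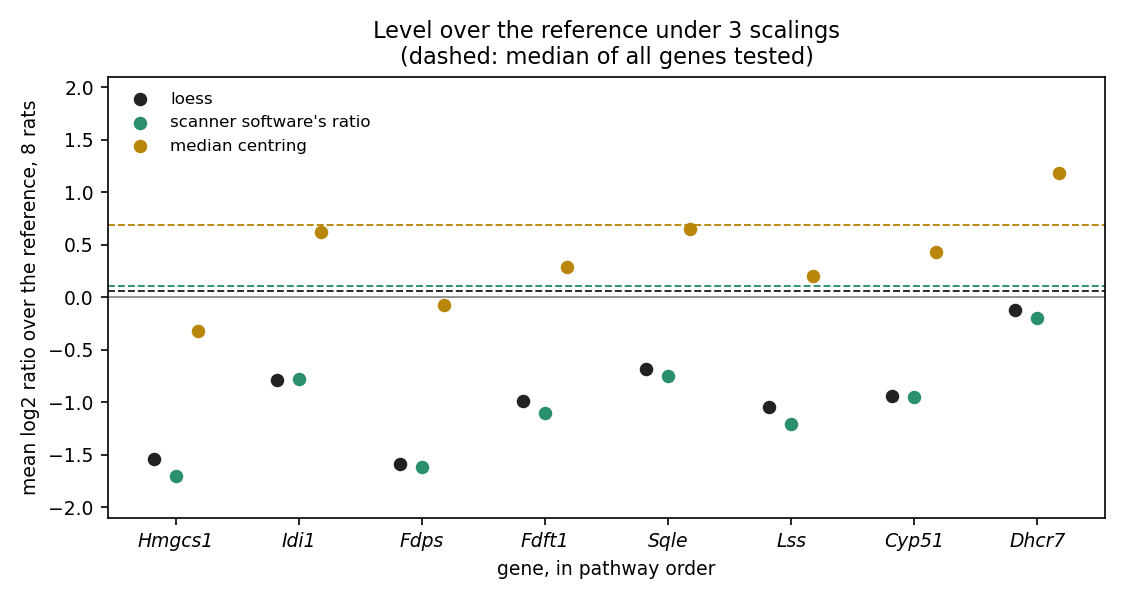
Mean log2 ratio over the reference in 8 TRAP rats for each enzyme under 3 scalings of the 2 dyes. Loess and the scanner's own ratio put all 8 below 0, whereas median centring puts only Hmgcs1 and Fdps below 0.

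The enzymes also varied from rat to rat within each group. The mean over the 8 enzymes was -1.23, -0.68, -0.99 and -1.06 in control rats and -0.63, -1.06, -1.15 and -0.88 in telmisartan rats. Telmisartan rat 302 was above the 8-rat mean in 8 of 8 enzymes and control rat 103 in 7 of 8, while control rat 102 was above it in 1. The range over the arrays was wider in the Cy5 channel, which holds the TRAP RNA, than in Cy3 for all 8 enzymes, as it was for 76.6% of all genes. Cy5 held a different rat on each array while Cy3 held the reference on all of them, so the 2 ranges do not measure the same spread. For Lss the highest and lowest arrays differed by 1.18 in Cy5 and by 0.257 in Cy3, and for Sqle by 0.868 and 0.178. Fdps was nearest to even, at 0.504 and 0.393.

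**Figure D4:**
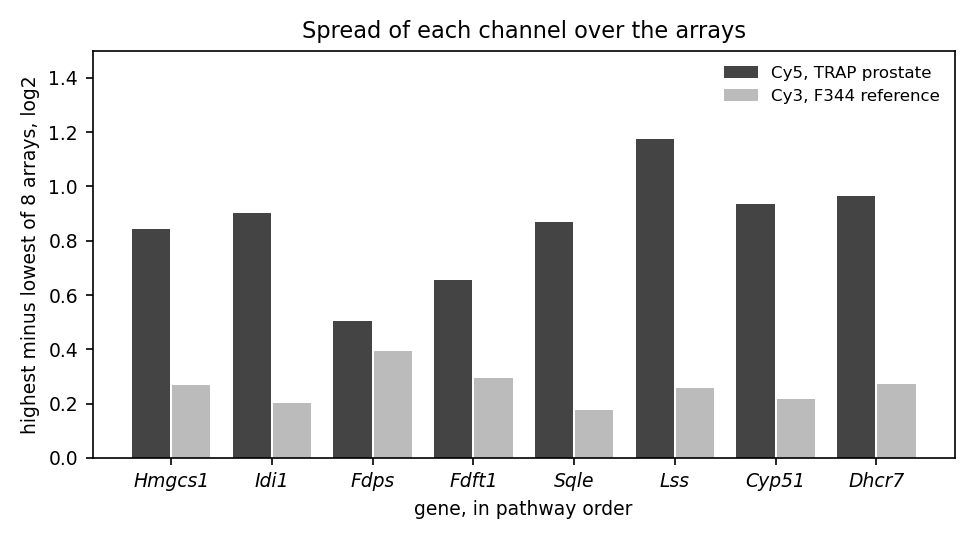
Highest minus lowest log2 intensity over 8 arrays in the Cy5 channel (TRAP prostate) and the Cy3 channel (F344 reference) for each enzyme. The Cy5 range, over different rats, is wider than the Cy3 range, over the reference on each array, for all 8 enzymes and for 76.6% of all genes.

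Over the 8 rats, the 28 pairs of enzymes had a median Pearson r of 0.53, from -0.22 for Hmgcs1 with Dhcr7 to 0.94 for Sqle with Idi1. Of these 26 were above 0, and the members' median r with all other genes was 0.03. Without control rat 103 and telmisartan rat 302 the median was 0.24, with 21 of 28 above 0. These are descriptions over 8 points that share the reference and the scaling, with no test. Among the genes whose ratios most resembled the mean of the 8 standardised enzymes were Orc1, a subunit of the origin recognition complex, with r = 0.995 over 8 rats, and Acsl3, a long-chain acyl-CoA synthetase, with r = 0.973. Kpna2, Dctpp1, Cenpm, Ift27 and Nt5dc2 had r from 0.970 to 0.963.

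Immune and proliferation markers varied across the same rats. The mean of 12 T cell and macrophage markers, all 12 tested, was 2.18, 0.94, 2.11 and 1.98 in control rats and 0.48, 1.29, 2.00 and 1.35 in telmisartan rats. Rats 302 and 103, high in the enzymes, were the lowest 2 in immune markers and the highest 2 in proliferation markers, at 3.45 and 3.65. With the group kept in a limma fit across all genes, the slope on the immune mean was below 0 for all 8 enzymes, against 52% of all genes, and it passed the adjusted threshold for 4 of 8, against 1.71% of all genes. The sign did not hold for every enzyme when rats were left out: without telmisartan rat 302 the slope of Hmgcs1 was 0.003, and without rats 302 and 103 together that of Hmgcs1 was 0.35 and that of Fdft1 0.14. Those 4 were Idi1 (-0.62, SE 0.10, adjusted p = 0.00511), Lss (-0.57, SE 0.13, adjusted p = 0.0261), Cyp51 (-0.43, SE 0.10, adjusted p = 0.0280) and Sqle (-0.41, SE 0.09, adjusted p = 0.0273). Since Lss split into 2 sets, its slope runs between those sets. Slopes of -0.28 for Fdps, -0.24 for Hmgcs1, -0.14 for Fdft1 and -0.12 for Dhcr7 did not pass in limma. Without control rat 103 none of the 8 passed, and without telmisartan rat 305 1 did. On the proliferation mean, Sqle was the 1 enzyme whose slope passed, at 1.09 (SE 0.24, adjusted p = 0.0472 in limma), against 0.461% of all genes with a positive slope that passed. Slopes on the proliferation mean were fitted only on all 8 rats after loess. They were not refitted with rats 103 and 302 left out or under another scaling. Both fits were added after the rats had been seen to differ in this way, and the part of immune cells, proliferation or these 2 rats in the enzyme levels was not tested.

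**Figure D5:**
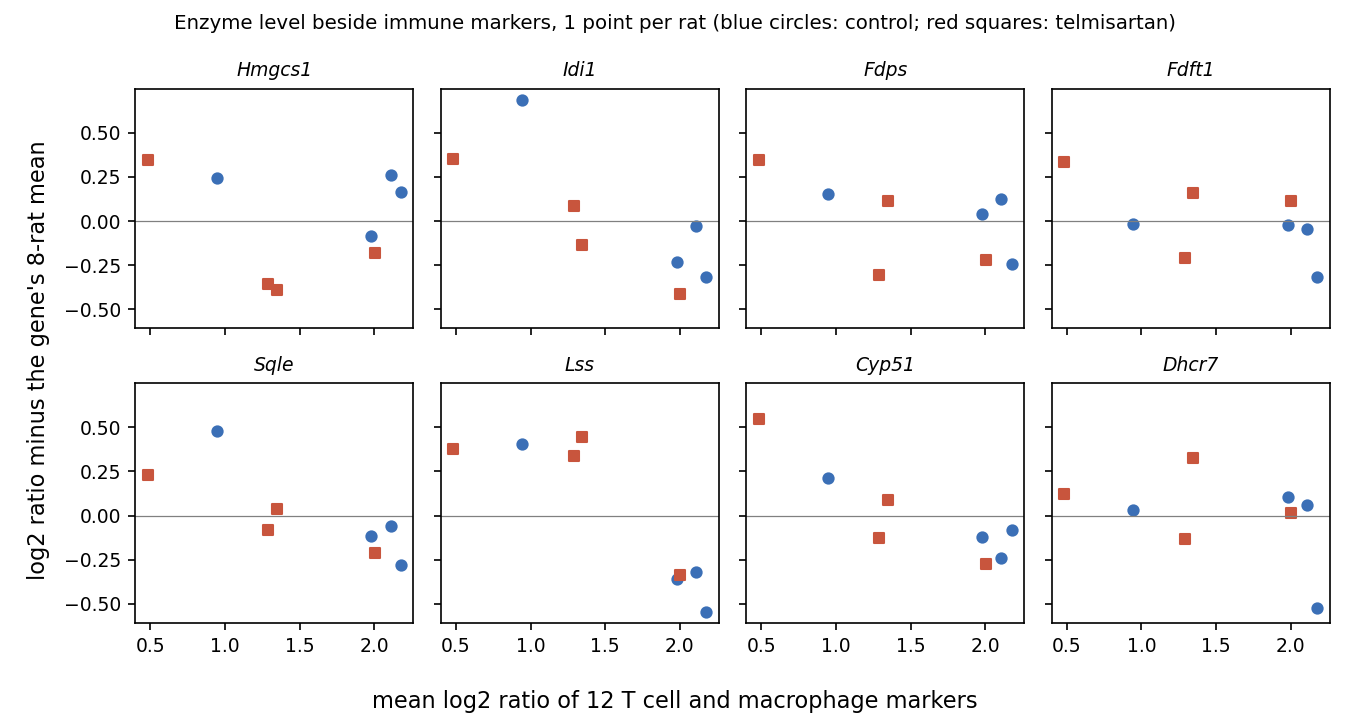
Log2 ratio of each enzyme, minus that enzyme's mean over the 8 rats, against the mean of 12 immune markers, 1 point a rat (4 control and 4 telmisartan). Telmisartan rat 302 and control rat 103 have the lowest immune means, 0.48 and 0.94; without control rat 103 no enzyme's slope passed.

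Of 12 other enzymes of the pathway listed, 11 were tested, with 8 higher and 3 lower in telmisartan rats by the mean, a median difference of 0.09, and 0 passing in limma. Tm7sf2, a sterol reductase, was at -2.94 over the reference after loess and at -1.58 under median centring. Msmo1, the methyl sterol oxidase, was at -1.77 and -0.27, and Sc5d, the sterol desaturase, at -1.33 and -0.07. On the immune mean, 10 of the 11 had a slope below 0 and 1 passed, against 52% and 1.71% of all genes. The 1 was Hsd17b7, a sterol ketoreductase, at -0.46 (adjusted p = 0.0378 in limma), and without rats 103 and 302 it was at -0.29 (adjusted p = 0.997). Mvd, which makes isopentenyl diphosphate, was the 1 above 0, at 0.17.

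The SREBP machinery, 7 of 7 tested, had 4 higher and 3 lower by the mean, a median difference of 0.07, and 0 passing in limma. Srebf2, the main activator of sterol genes, was at 0.02 over the reference after loess and 0.69 under median centring, and Srebf1, its relative with more effect on fatty acid genes, at 0.99 and 2.37. Insig1, which retains SCAP in the endoplasmic reticulum and is itself an SREBP target, was at -1.09 after loess but 0.39 under median centring. Mbtps1, the first SREBP-cutting protease, had the smallest p of the group, with a difference of 0.21 (SE 0.13).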

How the data were processed

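RNA of each prostate was extracted with ISOGEN and labelled with a Low RNA Input kit, per the labels' protocols. Spot intensities (Cy5 and Cy3) and the scanner's log10 ratios were made by the authors with Agilent Feature Extraction 9.1, per the submitters' processing notes and the file headers. The deposited series table holds the same log10 ratios. The background, outlier and saturation flags are the scanner software's. Neither the build behind the probes nor whether the reference was 1 pool is stated in the labels. A label names doses of 2 and 10 mg/kg/day, and the design text ties the arrays to 10.

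From the deposited intensities, background was corrected by normexp with an offset of 50 and ratios by loess (limma 3.58.1, R 4.3.3), with 1639 control spots at weight 0 and outlier spots dropped. A probe was kept when 4 or more of the 8 arrays had it well above background in Cy5, which 27559 did, and the brightest probe with a value on all 8 arrays stood for a gene. Groups were compared with lmFit and eBayes, with Benjamini-Hochberg adjustment over 23207 genes at 0.05. Every ratio is over reference RNA of the same kind, read anew on each array. Only the part of the reference error that is common to all arrays is shared by all rats, and its size was not tested. The labels number the rats separately, and p-values measure the spread between these 8 samples. The number of arrays limits the precision. The fit was tested on simulated data.

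Names came from the arrays and RefSeq (GRCr8). Genes named were the 8 members, the gene of smallest p in each of 5 pathway lists, listed genes with their levels, and the 8 most like the members' mean. The members and lists, 10 marker lists among them, were chosen with earlier results of these data known. Some genes that these rules name are not reported here. Alternatives covered background, scaling, filter, probe choice, slide, weights and each rat left out. The immune and proliferation slopes and the fit without rats 103 and 302 were added after seeing the data.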

Additional observations from a re-analysis of the deposited data

Results flagged for a closer look

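In 16 groups of 4 rats (8 enzymes in 2 treatments), 3 had a rat far from the other 3 by Dixon's gap test, which chance gives in about 1 of 20 groups. Fdft1 in control rat 102 was at -1.30, with the other controls at -1.03 to -1.003. Dhcr7 in the same rat was at -0.65, with the other controls at -0.09 to -0.01. Lss in telmisartan rat 305 was at -1.39, with the other telmisartan rats at -0.71 to -0.60.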

How the results depend on the processing

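No gene passed in 22 of 24 alternatives, and 1 did without control rat 102 (BI289714) and without telmisartan rat 303 (AI045810), so the count ran from 0 to 1 with a rat left out. Counts at an unadjusted p under 0.05 ran from 467 to 2597. No member passed in any alternative. The differences of Sqle, Idi1, Fdps and Cyp51 turned in some alternatives, and those of Hmgcs1, Fdft1, Lss and Dhcr7 kept their direction in all 24 but moved in size. With each rat left out Hmgcs1 ran from -0.46 (without 302) to -0.21, Fdft1 from 0.12 (without 302) to 0.30 (without 303), Lss from 0.29 to 0.61 (without control 103) and Dhcr7 from 0.0163 (without control 102) to 0.24, and over all 24 Lss ran from 0.11 to 0.61. Under median centring Sqle was 0.0841, Idi1 0.0606 and Fdps 0.11, and the members' median level over the reference was 0.36. Sqle was 0.00436 by the scanner's ratio, 0.0833 in Cy5 alone, 0.00127 on slide 2, 0.0392 with array weights and 0.0669 without rats 103 and 302. Idi1 was 0.0112 with the mean of its probes, 0.0327 on slide 1 and 0.0380 without both rats, and Fdps was 0.0630 on slide 1. Cyp51 was -0.11 with the immune mean as a covariate, and Acaca -0.00578 on slide 2. With each rat left out, Sqle ran from -0.11 to 0.15, Idi1 from -0.18 to 0.16, Fdps from -0.16 to 0.0587 and Cyp51 from -0.0490 to 0.22. The causes were not tested. Of the 4 enzymes with a passing immune slope, 2 passed with an offset of 16, with ratios scaled between arrays and by the scanner's ratio, 1 under median centring, 0 without both rats, and 0 to 4 with each rat left out. No paired analysis was possible because control and telmisartan rats share no replicate number. All 8 members were well above background in Cy5 on all 8 arrays, and the number of arrays limits the precision.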

Other observations

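Genes of fatty acid synthesis, of cholesterol uptake and storage, and of efflux gave 0 passing genes between telmisartan and control rats in limma, as 0% of all genes did. Among 8 fatty acid genes tested, 4 were higher and 4 lower in telmisartan rats by the mean, with a median difference of -0.005. Elovl6, a fatty acid elongase, was at -4.03 over the reference after loess and -2.87 under median centring, and Scd, the stearoyl-CoA desaturase, at -2.46 and -1.33. Acaca, acetyl-CoA carboxylase, was at 0.84 and 2.22.

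Uptake, transport and storage genes had 1 of 6 higher and 5 lower by the mean, with a median difference of -0.25. Soat1, which esterifies cholesterol for storage, had a difference of -0.29 (SE 0.12, unadjusted p = 0.033, adjusted p = 0.981 in limma). It was the 1 gene of the 38 tested in the 5 pathway lists with an unadjusted p under 0.05, against 4.82% of all genes. Over the reference Soat1 was at 1.45 after loess and 2.26 under median centring, and Lipa, the lysosomal acid lipase, at 1.73 and 2.91. These were the highest of the 6, Vldlr was the lowest at -0.46 and 0.42, and the median level after loess was 0.66. The 6 efflux genes had 2 higher and 4 lower by the mean, with a median difference of -0.26 and a median level of 0.55 after loess. Abcg1 and Abca1, the sterol exporters, were the highest, at 2.61 and 1.66 after loess and at 3.91 and 2.64 under median centring. Cyp27a1 was the lowest, at -0.85 and 0.46, with a difference of 0.29 (SE 0.15, adjusted p = 0.981 in limma). Abca1 and Abcg1 are also expressed by macrophages, whose markers were 1.25 to 1.87 in control and 0.68 to 1.83 in telmisartan rats, and their part in these levels was not tested.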
